A study of Arabidopsis thaliana with 8 samples.

Results

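The 337 genes described here were at least 2.00-fold lower in Alc::LHY seedlings than in wild type by the authors' deposited ratios. This held on every array from 2 h after ethanol onwards. The genes were chosen on the deposited log10 ratios of Alc::LHY over wild type. All 6 ratios at 2 h, 4 h and 8-9 h had to be -0.3 or lower, and both ratios at 0 h had to lie between -0.15 and 0.15. The probe also had to be well above background in 1 of the dyes on all 8 arrays. Of 34285 genes or unnamed transcripts on the array, 14709 met the conditions on background and on the 0 h ratio, and 337 of these met the whole rule. On the loess-normalized ratios in which most values below are given, 123 genes met the same rule. A locus of the reference annotation could be given to 315 of the 337, and 22 had none.

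The plants were Arabidopsis thaliana seedlings of the Col-0 background. Alc::LHY seedlings carried LHY under an ethanol switch, and wild-type (wt) seedlings did not. After 2 weeks on agar in a 12 h photoperiod the plates went into continuous light, and ethanol was given 17 h later to the roots, then as vapour. Each array compared Alc::LHY RNA with wild-type RNA of the same time, 0, 2, 4 or 8-9 h after ethanol. Every time had 2 arrays, called replicates S and I. The last sample was taken at 9 h in replicate S and at 8 h in replicate I. Both lines of an array share 1 treatment in the labels. A line with the ethanol switch but without the added LHY is not among the samples, so effects of LHY and of the switch cannot be told apart. The labels do not say that S and I were separate cultures, so p-values reflect only how these samples spread, and that spread may be technical. Alc::LHY RNA carried Cy5 in replicate S and Cy3 in replicate I, so replicate and dye cannot be told apart either. In whole seedlings, fewer cells of a type and less RNA per cell cannot be told apart.

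LHY is a MYB-like transcription factor of the plant circadian clock that is normally made around dawn and binds DNA mostly to hold genes down. Seedling growth depends on brassinosteroids, auxin, gibberellin and light, which act through layers of transcription factors on genes that loosen cell walls and enlarge cells. Brassinosteroid signalling ends in the transcription factors BES1 and BZR1 and their relatives, and runs on through small bHLH proteins that promote or block elongation. Many genes of these routes are read out at set times of day.

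LHY itself had 1 probe, which was dim and not well above background in either line at 0 h. No label or file says whether that probe also reads the transcript of the added LHY, so its ratios are no measure of how strongly the transgene was switched on. At 2 h its loess-normalized log2 ratio reached 0.97 on the array of replicate S and 0.17 on that of replicate I. The authors' deposited ratios, on the log2 scale, were 2.57 and 2.45 on the same arrays. Both values were thus above 0 at 2 h, with a size that depended on the normalization. The fitted ratio at 2 h was 0.57 ± 0.13 (SE, n = 2 arrays; limma, adjusted p = 0.0304), and at 4 h it was 0.38 (adjusted p = 0.0531). Of the seedling markers, 5 of 5 shoot genes were well above background on all 8 arrays. Among 6 root genes COBL9, SHR and SCR were also above background on all 8, and PIN2, WOX5 and PLT1 on 0. Of 3 pollen genes, 1 was above background, on 1 array.

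Over the 337 genes, the median log2 ratio was -0.02 at 0 h, -0.96 at 2 h, -1.24 at 4 h and -1.22 at 8-9 h. These are the values of a fit to loess-normalized ratios, in which a log2 ratio of -1 is a halving. On single arrays the median was -1.01 and -0.89 at 2 h in replicates S and I, -1.29 and -1.10 at 4 h, and -1.19 and -1.25 at 8-9 h. All 337 were below 0 on each of the 6 arrays after ethanol, a sign that the rule, set on the deposited ratios, all but fixes. The fitted ratios ran from -1.95 to -0.15 at 2 h, from -2.98 to -0.19 at 4 h and from -2.65 to -0.15 at 8-9 h. The median gap between the replicates of a gene was 0.24 at 2 h, 0.24 at 4 h and 0.20 at 8-9 h.

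**Figure D1:**
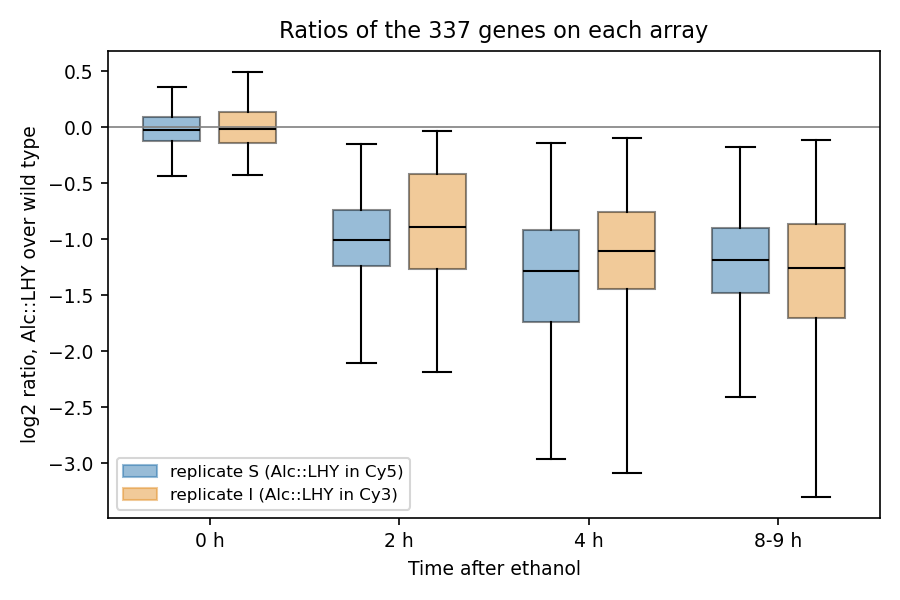
The log2 ratio of Alc::LHY over wild type (vertical axis) is shown for the 337 genes on each of the 8 arrays, by time after ethanol. Boxes span the quartiles with the median as a line, and whiskers reach the lowest and highest gene. Medians lie at -0.02 on both 0 h arrays and between -1.29 and -0.89 on the 6 arrays after ethanol.

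The call of lower genes in the same ratios is a description, since the rule chose them there. At an adjusted p under 0.05, 277 of the 337 (82.2%) were called lower at 2 h, where 6.89% of all 28465 probes tested were called lower. At 4 h the count was 327 (97.0%) against 19.1% of all probes, and at 8-9 h it was 328 (97.3%) against 19.2%. Without replicate S at 2 h the count at 2 h was 78, and without replicate I at 2 h it was 98. Without replicate I at 8-9 h the count at 8-9 h was 216. With median centring in place of loess, 0 genes were called at 2 h and 14 at 8-9 h. The medians were then -1.19 at 2 h, -1.43 at 4 h and -1.0 at 8-9 h, beside -0.96, -1.24 and -1.22 with loess. All 337 fitted ratios were below 0 at each time under every alternative that measured them, a sign that the rule all but sets.

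The authors' deposited ratios were larger in size than the loess ratios. Their fitted medians over the 337 genes, on the log2 scale, were -1.51 at 2 h, -1.71 at 4 h and -1.64 at 8-9 h. When the rule was put to the loess ratios, 123 genes passed it, 114 of them among the 337. Values below are loess ratios unless stated otherwise.

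Just inside the limit of -0.3 on the log10 scale stood CHAL, a gene for a small secreted peptide of the family that patterns stomata, with a highest deposited ratio after ethanol of -0.3005. HCD1 had -0.3007 and AT3G50650 had -0.3013. Just outside were SBP2, whose highest ratio was -0.2999 and whose other 5 ratios after ethanol ran from -0.793 to -0.360, AT5G12900 at -0.299 and AT1G70000 at -0.299.

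The lowest mean ratio after ethanol was that of DCF, DEFICIENT IN CUTIN FERULATE, an enzyme gene that adds ferulate to the cutin of the cuticle. In replicates S and I it stood at -0.43 and -0.36 at 0 h, -1.48 and -2.10 at 2 h, -2.67 and -2.08 at 4 h, and -2.32 and -2.98 at 8-9 h. Every later array lay below both 0 h arrays, an order that the rule sets in the deposited ratios of every member. On the separate dye channels, the DCF signal changed from 0 h to 2 h by -0.29 ± 0.29 in Alc::LHY and by 1.11 ± 0.29 in wild type. EXPA8, an expansin that loosens cell walls, had -0.20 and 0.19 at 0 h, -1.63 and -1.84 at 2 h, -2.87 and -3.08 at 4 h, and -1.75 and -2.23 at 8-9 h. Its 4 h arrays were the lowest, and they did not overlap with the arrays of 2 h or 8-9 h.

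TBL45, of a family that acetylates cell wall polysaccharides, had fitted ratios of -1.38 ± 0.16 at 2 h, -2.33 ± 0.16 at 4 h and -2.33 ± 0.16 at 8-9 h (SE, n = 2 arrays per time). UMAMIT44, of a family of amino acid exporters, had -1.57 ± 0.11, -2.06 ± 0.11 and -2.23 ± 0.11 at the same times. bHLH071, a bHLH transcription factor, stood almost level at -1.74 ± 0.13, -1.92 ± 0.13 and -2.04 ± 0.13. Of the other 7 genes among the 12 lowest, RPT2 and CYP79F1 are described with their pathways below. AT1G60590 had -1.95, -2.13 and -2.0, AT1G23205 had -1.90, -2.27 and -2.18, and AT1G52000 had -1.85, -2.39 and -1.88. AT5G44680 had -1.46, -2.53 and -1.97, and an unnamed transcript (NM_001124101) had -1.90, -2.61 and -2.21. The annotation used here holds no gene descriptions, so these 5 are given without a role.

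Brassinosteroid genes were present at several levels of the pathway. Among transcription factors, BES1 and its relative BEH1, which carry the brassinosteroid signal to promoters, were both members. BES1 had -0.31 and 0.15 in replicates S and I at 0 h, -1.14 and -1.37 at 2 h, -1.74 and -1.26 at 4 h, and -1.40 and -1.17 at 8-9 h. BEH1 had -0.16 and -0.35 at 0 h, -1.27 and -0.99 at 2 h, -2.13 and -1.35 at 4 h, and -1.65 and -1.44 at 8-9 h. For both genes all 6 arrays after ethanol lay below both 0 h arrays, as the rule requires of the deposited ratios.

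Further along the pathway stood 6 small bHLH genes. BEE1, BEE2 and BEE3 are early brassinosteroid-response genes that promote growth. BEE2 had fitted ratios of -1.04 ± 0.17 at 2 h, -1.55 ± 0.17 at 4 h and -1.39 ± 0.17 at 8-9 h. BEE1 had -0.94, -1.02 and -0.95, and BEE3 had -0.35, -0.75 and -0.75. HBI1, a bHLH activator of cell elongation, had -1.13 ± 0.21, -1.85 ± 0.21 and -1.42 ± 0.21. PRE1, a helix-loop-helix protein that frees such activators by binding their inhibitor, had -0.77 ± 0.13, -1.38 ± 0.13 and -1.16 ± 0.13. IBH1, that inhibitor, was a member as well, at -0.71 ± 0.10, -1.11 ± 0.10 and -1.15 ± 0.10. A second IBH1 probe, above background on all 8 arrays, had -0.19, 0.03 and -0.25 at the same times, so the low ratio of IBH1 rests on the member probe alone. On both arrays at 4 h BEE3 did not clear background in Alc::LHY, where it was at least 1.68-fold lower than in wild type.

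Of the enzymes that make brassinosteroids, the cytochrome P450 genes DWF4 and CPD were members. DWF4, which carries out a rate-limiting step, had -1.0 ± 0.13 at 2 h, -0.95 ± 0.13 at 4 h and -1.30 ± 0.13 at 8-9 h. CPD had -1.16 ± 0.19, -1.72 ± 0.19 and -1.18 ± 0.19. These families were picked for counting after the members were seen, and the counts below rest on the brightest probe of each gene. Members are low by the rule, so each family is counted without them. Of the 4 other brassinosteroid-linked bHLH genes tested, 1 was called lower at 2 h, 2 at 4 h and 3 at 8-9 h. Of the 8 other genes of brassinosteroid synthesis, 2, 4 and 4 were called lower, and of the 3 other genes of the BZR1 and BES1 family 0, 1 and 1. None of these 15 was called higher (0). Over all 21471 genes tested in this way, 7.66% were called lower at 2 h, 19.5% at 4 h and 20% at 8-9 h, and 6.28%, 17.3% and 16.7% were called higher.

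Cell wall genes ranged from wall-loosening proteins to polysaccharide synthases. Beside EXPA8, the expansins EXPA6 and EXPA11 were members. EXPA6 had -0.09 and 0.15 in replicates S and I at 0 h, -1.46 and -1.04 at 2 h, -2.24 and -1.85 at 4 h, and -1.79 and -2.17 at 8-9 h. EXPA11 had fitted ratios of -1.24 ± 0.14, -1.48 ± 0.14 and -1.43 ± 0.14 at the 3 times after ethanol. XTH9, an enzyme that cuts and rejoins xyloglucan, had -1.33 ± 0.24, -1.48 ± 0.24 and -1.68 ± 0.24, with replicates of -1.92 and -1.04 at 4 h. The ratios of these 4 genes after ethanol did not overlap with those at 0 h, as the rule requires of the deposited ratios.

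Of the 7 listed expansins outside the 337, 1 was called lower at 2 h, 7 at 4 h and 6 at 8-9 h. Their median was -0.30 at 2 h, -0.87 at 4 h and -1.28 at 8-9 h, where the median of all genes was 0.00, -0.01 and -0.01. Of the 9 other xyloglucan-modifying enzymes, 4, 8 and 8 were called lower. Outside the 337, no gene of either list was called higher (0 of 7 and 0 of 9).

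Among cellulose synthase-like genes, which make the backbones of other wall polysaccharides, 4 were members. CSLC04, of the family that makes xyloglucan backbones, had -0.72 ± 0.12 at 2 h, -1.20 ± 0.12 at 4 h and -1.54 ± 0.12 at 8-9 h. CSLG3 ended at -1.71 ± 0.16, CSLB04 was lowest at 4 h with -1.90 ± 0.18, and CSLA11 had replicates of -1.38 and -0.23 at 2 h. Of the 27 other such genes tested, 4, 8 and 9 were called lower and 3, 2 and 3 higher at 2, 4 and 8-9 h. PME44, a pectin methylesterase, had -1.15 ± 0.13, -1.83 ± 0.13 and -2.20 ± 0.13. XYL4, a beta-xylosidase, had -1.33, -1.62 and -1.42, and LNG2, LONGIFOLIA2, which promotes lengthwise cell growth, had -1.43, -1.81 and -1.47.

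Auxin genes were present from synthesis to response. TAA1, which starts the main route of auxin synthesis from tryptophan, had -0.90 ± 0.12 at 2 h, -1.06 ± 0.12 at 4 h and -1.20 ± 0.12 at 8-9 h. GH3.6, listed as DFL1, and GH3.5, listed as WES1, are enzymes that bind auxin to amino acids. GH3.6 had 0.00 and -0.25 in replicates S and I at 0 h, -1.23 and -0.97 at 2 h, -2.08 and -1.83 at 4 h, and -1.73 and -2.11 at 8-9 h. GH3.5 had smaller ratios, -0.54 ± 0.10, -0.97 ± 0.10 and -0.98 ± 0.10. IAA7, a repressor of auxin response genes, had -0.28 ± 0.13, -0.31 ± 0.13 and -0.51 ± 0.13 at its dim member probe, and its array of replicate I at 2 h (-0.14) lay above that of 0 h (-0.16). At a second IAA7 probe, above background on all 8 arrays, the ratios were -0.38, -0.98 and -1.50. Of the 12 Aux/IAA and GH3 genes outside the 337, 4, 9 and 9 were called lower and 0 higher.

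Of the small auxin-up RNA (SAUR) family, whose proteins promote cell expansion, 7 were members. AT3G60690 (SAUR59) had -1.16 ± 0.12, -1.86 ± 0.12 and -1.62 ± 0.12, and AT4G34760 (SAUR50) had -1.17 ± 0.12, -1.45 ± 0.12 and -1.30 ± 0.12. AT1G72430 (SAUR78) had -1.20, -1.50 and -1.23, AT1G76190 (SAUR56) had -0.67, -1.17 and -1.29, and SAUR68 had -0.59, -0.92 and -1.05. AT2G16580 and AT1G29500 were dimmer and ended at -0.58 and -0.53. Among the 45 other SAUR genes tested, 7, 17 and 20 were called lower and 2, 3 and 4 higher, so the family did not stand on a single side.

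**Figure D2:**
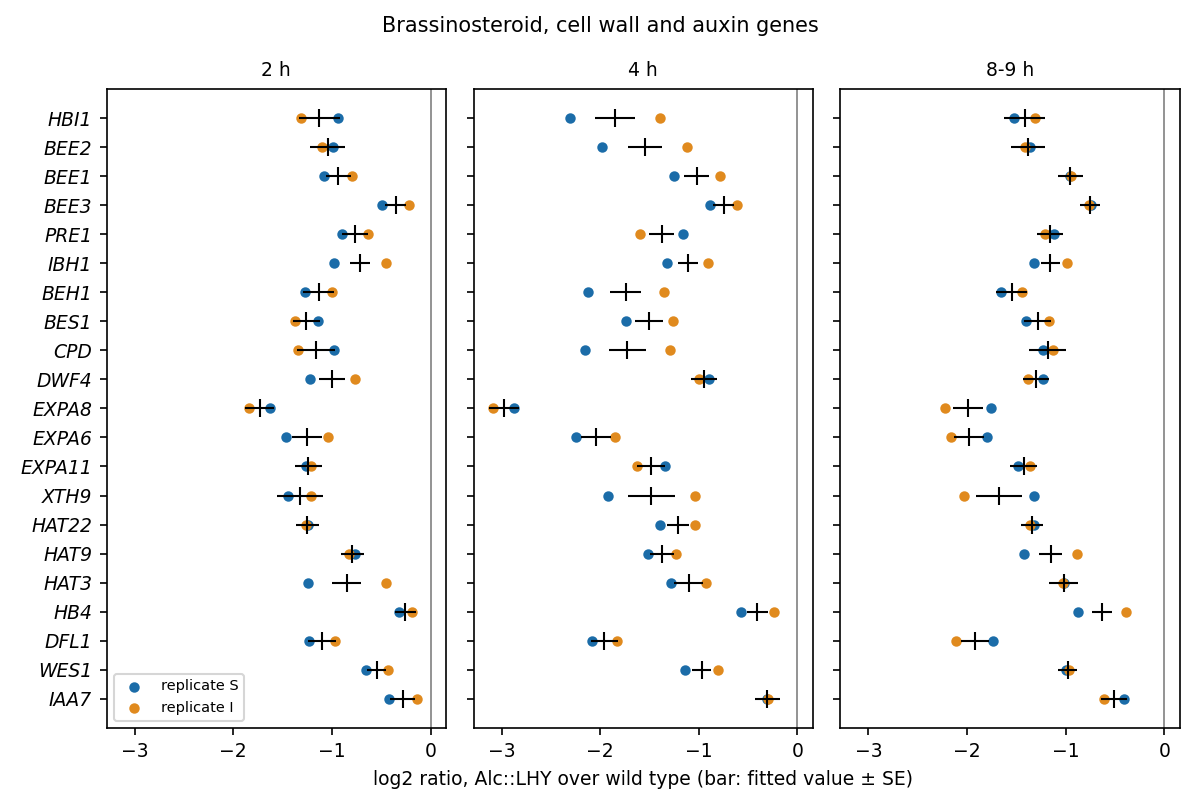
Log2 ratios of Alc::LHY over wild type (horizontal axes) at 2 h, 4 h and 8-9 h are shown for 21 genes of brassinosteroid, cell wall and auxin biology. Points are the arrays of replicates S and I, and the upright bar with its line is the fitted value ± SE. All points lie below 0, from -3.08 for EXPA8 at 4 h to -0.14 for IAA7 at 2 h.

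Of the 8 class II HD-ZIP genes tested, 4 were members. These homeodomain-leucine zipper factors act in shade growth and leaf polarity. HAT22 stood at -1.25 ± 0.11, -1.21 ± 0.11 and -1.34 ± 0.11, HAT9 at -0.79 ± 0.12, -1.37 ± 0.12 and -1.15 ± 0.12, and HAT3 at -0.85 ± 0.15, -1.10 ± 0.15 and -1.02 ± 0.15. HB4 had -0.26, -0.41 and -0.63. The other 4 genes of the class gave 0 lower calls at 2 h, 4 at 4 h and 4 at 8-9 h.

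In all, 37 members were transcription factors by the words of their names in the annotation, a count that misses factors whose names lack such words, as BES1 and HBI1 do. MYB47 had 0.14 and 0.42 in replicates S and I at 0 h, -2.10 and -1.65 at 2 h, -1.75 and -1.99 at 4 h, and -1.37 and -2.09 at 8-9 h. DOF2, a zinc finger factor, was steady at -1.65 ± 0.09, -1.64 ± 0.09 and -1.75 ± 0.09. BHLH101, which acts in the response to low iron, had -1.53 ± 0.13, -1.73 ± 0.13 and -1.55 ± 0.13. HAM3, a GRAS factor that maintains meristems, had -1.21 ± 0.15, -1.61 ± 0.15 and -1.56 ± 0.15.

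Several families of regulators, picked after the members were seen, had more than 1 member. Of the zinc finger homeodomain genes, HB34, HB23 and HB25 had -1.53 ± 0.15, -1.30 ± 0.22 and -1.19 ± 0.12 at 4 h. The single-repeat MYB proteins TCL2 and CPL3 hold back leaf hairs, and had -1.20 ± 0.17 and -1.23 ± 0.10 at 4 h. The NGATHA genes NGA3 and NGA4, B3-domain factors of leaf and flower shape, had -0.66 and -0.46 at 4 h. The zinc finger genes IDD2, IDD4 and IDD7 had -1.20, -1.08 and -0.72 at 4 h. RTFL17 and RTFL3, which encode small ROTUNDIFOLIA-like peptides that limit cell proliferation, had -1.69 and -1.30 at 4 h, and the repressors OFP15 and OFP16 of the ovate family had -1.08 and -0.77.

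Genes of light signalling formed another set of members. PHOT1 is a blue light receptor for bending towards light, and RPT2 and PKS1 act with it. RPT2 had 0.05 and -0.30 in replicates S and I at 0 h, -1.17 and -1.97 at 2 h, -2.96 and -2.14 at 4 h, and -1.69 and -1.53 at 8-9 h. PHOT1 had -0.93 ± 0.14, -1.62 ± 0.14 and -1.21 ± 0.14, and PKS1 had -1.16 ± 0.26, -1.81 ± 0.26 and -1.44 ± 0.26. The fitted value was lowest at 4 h for each of the 3, but for PKS1 replicate S alone carried this. PKS1 had -0.99 and -1.33 in replicates S and I at 2 h, -2.44 and -1.18 at 4 h, and -1.55 and -1.33 at 8-9 h. Of the 9 other photoreceptor and phototropism genes tested, 2, 5 and 4 were called lower and 0, 0 and 1 higher.

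The B-box genes COL2, a relative of the flowering regulator CONSTANS, and BBX14 were members. COL2 had 0.15 and 0.19 at 0 h, -1.20 and -1.10 at 2 h, -2.0 and -2.41 at 4 h, and -2.21 and -1.47 at 8-9 h. BBX14 had replicates that differed at 4 h, -2.55 and -1.09, around a fitted value of -1.82 ± 0.30. Regulators of chloroplast development were GLK2, GNC and CIA2, together with GUN4, which promotes chlorophyll synthesis. At 4 h they had -1.28 ± 0.15, -0.90 ± 0.16, -1.39 ± 0.16 and -1.83 ± 0.11. No member was found among 17 light-harvesting antenna genes (0), although 16 of the 17 were called lower at 4 h and 0 at 2 h.

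Other hormone routes were represented by single genes, chosen for mention after their values were seen. GAI, a DELLA protein that blocks gibberellin response, had -0.93 ± 0.11 at 2 h, -1.28 ± 0.11 at 4 h and -1.28 ± 0.11 at 8-9 h. EFE, which makes ethylene from its precursor, had -1.23 ± 0.13, -1.63 ± 0.13 and -1.75 ± 0.13. AOC1, an enzyme of jasmonate synthesis, had -1.50 ± 0.19, -2.07 ± 0.19 and -1.35 ± 0.19. LOG1, which activates cytokinin, had -0.73, -0.72 and -0.75. In strigolactone biology, the repressor SMXL7 (AT2G29970) had -1.05, -1.24 and -1.18, and the synthesis gene LBO1 had -0.97, -1.30 and -1.11.

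Genes of the leaf surface and of stomata, also chosen after their values were seen, stood beside DCF and CHAL. CYP86A2, a fatty acid hydroxylase of cutin synthesis, had -1.12 ± 0.12, -1.30 ± 0.12 and -1.88 ± 0.12. MYB16 and MYB30, MYB factors of cuticle genes and of very long fatty acids, had -1.31 ± 0.10 and -1.36 ± 0.12 at 4 h. DEWAX (AT5G61590), a repressor of wax synthesis, had -1.56 ± 0.27, -1.69 ± 0.27 and -1.63 ± 0.27, so an inhibitor of the wax route was low together with these. LTP, a lipid transfer protein, had -1.43 ± 0.15, -1.56 ± 0.15 and -2.27 ± 0.15, and the transporter ABCG5 had -0.82, -0.99 and -1.12. Of the guard cell channels, KAT1, which takes up potassium, had -0.70 ± 0.09, -0.92 ± 0.09 and -1.68 ± 0.09, and ALMT12, an anion channel, had -0.86 ± 0.18, -1.37 ± 0.18 and -1.93 ± 0.18. CHAL had -0.21, -0.36 and -0.34.

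Sugar metabolism gave 1 listed member in starch breakdown, BAM3, the chloroplast beta-amylase listed as CT-BMY. It had -0.19 and -0.21 in replicates S and I at 0 h, -1.25 and -1.75 at 2 h, -1.66 and -1.03 at 4 h, and -1.07 and -1.37 at 8-9 h. The other 11 starch breakdown genes gave 0, 0 and 1 lower calls. SWEET12, a sucrose exporter, had -1.16 ± 0.12, -1.87 ± 0.12 and -1.47 ± 0.12. ATSPS4F, a sucrose phosphate synthase, had -1.15, -1.89 and -1.36. ATBETAFRUCT4, a vacuolar invertase that splits sucrose, had -1.33, -1.84 and -1.44, and C/VIF2, an invertase inhibitor, had -1.47, -1.39 and -1.76. The trehalose-6-phosphate phosphatases TPPE and TPPA had -1.55 ± 0.16 and -0.94 ± 0.16 at 4 h. Of the 3 other genes of that family tested, 0, 1 and 1 were called lower at 2, 4 and 8-9 h, and 0 higher.

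Nitrate and other transporters were members too. NRT1.7, which moves nitrate out of older leaves, had -1.65 ± 0.13, -1.52 ± 0.13 and -1.53 ± 0.13. Its relative NPF3.1 (AT1G68570) had -1.70 ± 0.16, -1.65 ± 0.16 and -1.66 ± 0.16. Both were as low at 2 h as later. KT1, a potassium transporter, had -1.15, -1.12 and -1.10, the borate exporter BOR1 had -0.95, -1.16 and -1.14, and YSL1, which moves metals bound to nicotianamine, had -0.67, -1.15 and -1.29.

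Glucosinolates are sulphur-rich defence compounds of the cabbage family. CYP79F1, which acts on chain-elongated methionine in their synthesis, had 0.31 and 0.33 in replicates S and I at 0 h, -1.03 and -1.03 at 2 h, -1.85 and -2.62 at 4 h, and -1.59 and -3.30 at 8-9 h. The replicates thus stood apart by the last time. All 6 arrays after ethanol were below the 0 h arrays, as the rule requires of the deposited ratios. FMO GS-OX1, which oxidizes their side chain, had -0.39, -0.80 and -1.0, and IGMT4, of the family that methylates indole glucosinolates, had -1.25 ± 0.09, -1.28 ± 0.09 and -1.85 ± 0.09.

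Meristem and cell cycle genes were members as well. BAM2, a receptor kinase related to CLAVATA1, had -0.95 ± 0.13, -1.42 ± 0.13 and -1.48 ± 0.13, and CRN, a kinase-like protein of the same signalling, had -0.59, -0.97 and -0.93. The leaf polarity and blade genes KAN3 and WOX1 had -0.82 ± 0.09 and -0.58 ± 0.13 at 4 h. The cyclin-dependent kinase inhibitors ICK1 and LGO had -0.16 and -0.49 at 2 h, and -0.64 and -0.50 at 8-9 h. The D-type cyclin CYCD6;1 had -0.31 at 2 h and -0.66 at 8-9 h. By limma, ICK1, LGO and CYCD6;1 were not called at 2 h (adjusted p = 0.437, 0.0979 and 0.105). LGO was not called at 4 h either (limma, adjusted p = 0.104). Among other genes described here, CHAL, IAA7, FMO GS-OX1, GER3 and CYP79F1 were not called at 2 h (limma, adjusted p = 0.299, 0.220, 0.0968, 0.0806 and 0.0629). IAA7 was also not called at 4 h, nor CHAL at 8-9 h (limma, adjusted p = 0.108 and 0.0597). On the arrays of replicate S, ICK1 stood at -0.28 at 2 h and at -0.30 at 0 h. At 2 h ICK1 did not clear background in Alc::LHY, where it was at least 1.12-fold lower.

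The course of the ratios after 2 h is a description, since the rule used these ratios. By setting the same limit at each time it left out genes above the limit at 2 h and genes that returned above it later. From 2 h to 4 h the ratio was lower in 301 of the 337 genes, with a median difference of -0.23, against 0.00 over all probes. No member was called (0 of 337), where 0.295% of all probes were called lower and 0.0422% higher. At an unadjusted p under 0.05, 81 of the 337 were lower at 4 h than at 2 h and 0 were higher, and over all 28465 probes 2896 were lower and 1828 higher (limma). The smallest adjusted p of a member was 0.0513, for AT5G54130, whose ratio was -1.14 at 2 h and -2.09 at 4 h. EXPA8 had the largest difference, -1.24 ± 0.21 (limma, adjusted p = 0.0649).

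From 4 h to 8-9 h, 186 ratios were lower and 151 were higher, with a median difference of -0.02 and a range from -0.76 to 0.99. Again 0 were called, as were 0 of all probes, and at an unadjusted p under 0.05 17 were lower and 13 higher, against 1314 and 1188 of all probes (limma). EXPA8 had the largest return towards 0, 0.99 ± 0.21, with an adjusted p of 0.497 by limma. From 2 h to 8-9 h 300 were lower. Of the members 0 were called, where 0.214% of all probes were called lower and 0.0246% higher. At an unadjusted p under 0.05, 96 were lower and 1 was higher, against 2930 (10.3%) and 1900 (6.7%) of all probes (limma). The smallest adjusted p there was 0.0534, for KAT1. Without a filter on dim probes, AT5G54130 was called from 2 h to 4 h and KAT1 from 2 h to 8-9 h.

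By its fitted values, the lowest point lay at 2 h in 18 genes, at 4 h in 138 and at 8-9 h in 181. In 163 genes each time was lower than the one before, and in 13 each was nearer 0. The replicates leaned differently at the later times. Replicate S had the lower ratio in 225 of the 337 genes at 2 h and in 240 at 4 h, but in 146 at 8-9 h. Replicate, dye and, at the last time, sampling hour cannot be told apart in these counts.

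A low ratio can come with a lower signal in Alc::LHY or with a higher one in wild type. In a fit of the separate dye channels, the change from 0 h in Alc::LHY had a median of -0.73 at 2 h, -1.06 at 4 h and -0.95 at 8-9 h on the log2 scale. In wild type the medians were 0.11, 0.11 and 0.21. The change was larger in size in Alc::LHY than in wild type for 263, 304 and 285 of the 337 genes. In Alc::LHY 184, 266 and 258 genes were called lower than at 0 h, where 6.39%, 13.3% and 15.8% of all probes were. In wild type 2, 8 and 33 were called higher, where 0.0458%, 0.606% and 2.4% of all probes were, and 0, 0 and 8 lower, where 0%, 0.282% and 1.52% were. Both channels are part of the ratios that chose the genes, so nothing further is read from these shares.

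Single arrays weighed on the counts within lines. In Alc::LHY at 2 h the count was 72 without replicate S at 0 h, 98 without replicate I at 0 h and 74 without replicate S at 2 h. At 4 h it was 175 without replicate S at 0 h, and at 8-9 h 171 without replicate S at 0 h and 147 without replicate I at 8-9 h. In wild type at 8-9 h the count of higher genes was 3 without replicate I at 0 h, 9 without replicate S at 0 h, 6 without replicate I at 8-9 h and 5 without replicate S at 8-9 h.

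**Figure D3:**
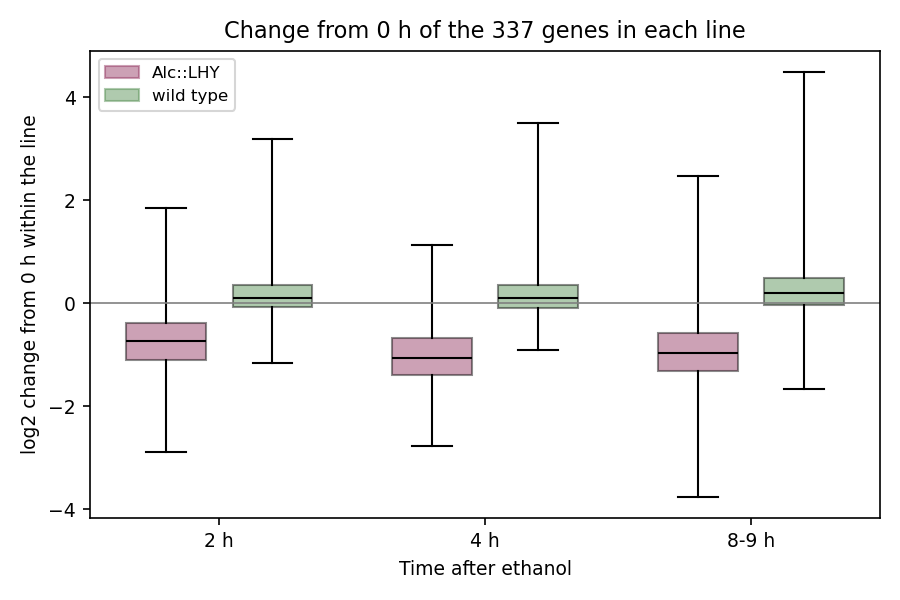
The log2 change of signal from 0 h (vertical axis) is shown for the 337 genes within Alc::LHY and within wild type at 2 h, 4 h and 8-9 h. Boxes span the quartiles with the median as a line, and whiskers reach the lowest and highest gene. Medians lie at -0.73, -1.06 and -0.95 in Alc::LHY, and at 0.11, 0.11 and 0.21 in wild type.

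At 2 h the signal was below that of 0 h in Alc::LHY and above it in wild type for 198 genes. It was below in both lines for 120 and above in both for 19, among them TBL45, DEWAX and IGMT4. At 8-9 h it was below in Alc::LHY and above in wild type for 236 genes, below in both lines for 93, and above in both for 8. COL2 was the extreme of the last kind. Its log2 channel signal in Alc::LHY was 8.80 and 8.46 at 0 h in replicates S and I, 8.16 and 8.58 at 2 h, 9.65 and 9.87 at 4 h, and 11.07 and 11.15 at 8-9 h. In wild type it was 8.64 and 8.27 at 0 h, 9.36 and 9.67 at 2 h, 11.65 and 12.28 at 4 h, and 13.28 and 12.63 at 8-9 h. COL2 was called higher than at 0 h in both lines at 4 h and 8-9 h, and its Alc::LHY arrays lay below its wild-type arrays at each time after ethanol. By 8-9 h its change from 0 h was 2.48 ± 0.27 in Alc::LHY, beside 4.50 ± 0.27 in wild type.

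PRE1 also had a higher signal in both lines at 8-9 h, and its change from 0 h by then was 0.64 ± 0.26 in Alc::LHY, beside 1.75 ± 0.26 in wild type. AT5G54130 had changes of -0.19, -0.15 and 0.09 in Alc::LHY at 2, 4 and 8-9 h, and of 0.92, 1.93 and 1.78 in wild type, so its low ratio went with a higher signal in wild type. AT1G72416 had the largest change in wild type at 2 h, 3.19 ± 0.61, beside 1.84 ± 0.61 in Alc::LHY. Its replicates differed widely, at 11.30 and 8.61 in Alc::LHY and 12.57 and 9.998 in wild type.

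GER3, a germin-like protein of the cell wall, was the extreme of the genes that declined in both lines. Its change from 0 h was -1.0, -2.24 and -3.75 in Alc::LHY and -0.02, -0.90 and -1.67 in wild type at 2, 4 and 8-9 h, with a standard error of 0.38. BAM3 was similar at 8-9 h, at -2.31 in Alc::LHY and -1.29 in wild type. EXPA8 had changes of -2.88, -2.77 and -0.96 in Alc::LHY and of -1.15, 0.20 and 1.03 in wild type, with a standard error of 0.36.

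**Figure D4:**
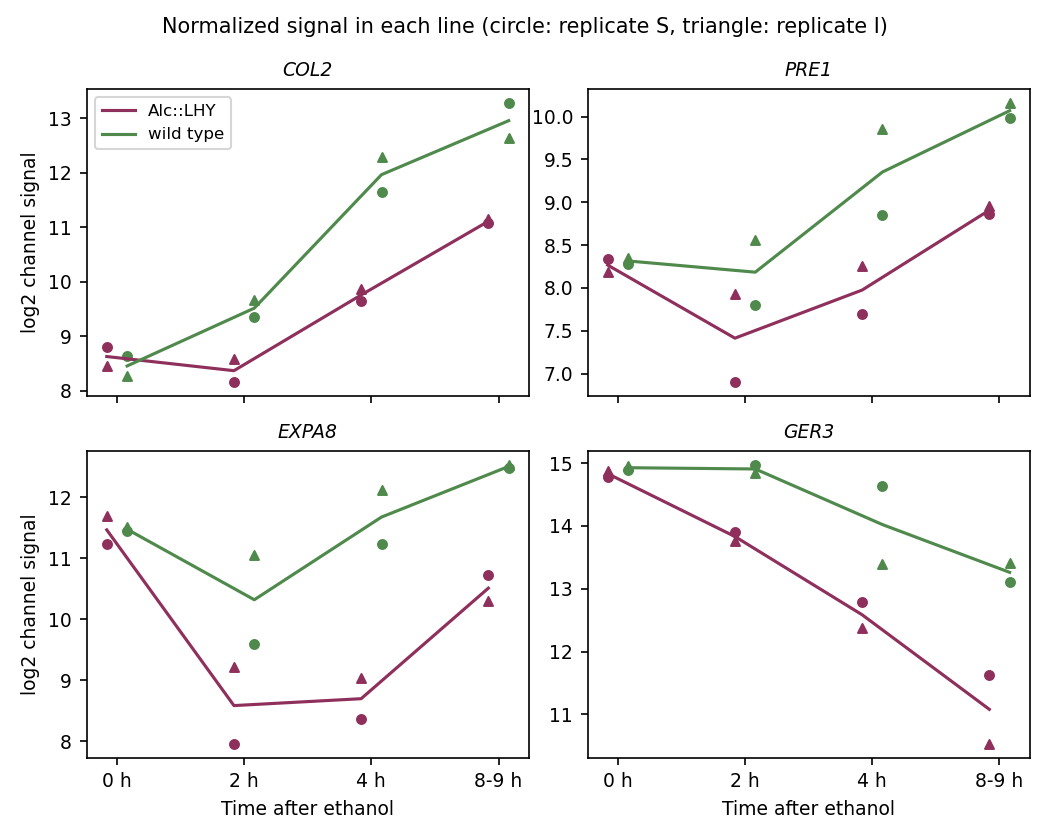
The normalized log2 channel signal (vertical axes) of COL2, PRE1, EXPA8 and GER3 is shown by time after ethanol in Alc::LHY and in wild type. Circles are replicate S, triangles replicate I, and lines join the means. At each time after ethanol the mean in Alc::LHY lies below that in wild type, also for COL2, which reaches 11.07 and 11.15 in Alc::LHY and 13.28 and 12.63 in wild type at 8-9 h.

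Signal near background limits the size of some ratios. The Alc::LHY channel was not well above background on either array for 5 genes at 2 h, 20 at 4 h and 6 at 8-9 h, and 314 genes had no such time. For these the difference is only a bound, taken between the mean of the normalized wild-type signal and the Alc::LHY signal or, where that is higher, the dimmest signal that counts as well above background. It ran up to at least 1.77-fold lower, for AT4G10150 at 4 h. IAA7 was at least 1.24-fold lower and NGA4 at least 1.38-fold lower at 4 h.

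Some of the genes were also read by other probes. Of the 337 genes, 107 had another probe that passed the filter, 132 probes in all. The rule was put to every probe, and 42 of the 132 met it themselves, in 35 genes. The other 90, of 77 genes, did not meet it, and 71 of these were above background on all 8 arrays. All 90 had a mean ratio below 0 after ethanol, from -1.70 to -0.05 with a median of -0.51, and 42 of them were above -0.5. These 90 were set apart by failing the rule, so their sizes are a description too. Among genes described above, the other probe was nearest to 0, on all 8 arrays above background, for HCD1 (-0.12 against -1.28 at the member probe), IBH1 (-0.14 against -0.99), C/VIF2 (-0.15 against -1.54), CRN (-0.19 against -0.83) and PHOT1 (-0.29 against -1.26). BES1 had -0.54 against -1.35 and CYP79F1 -0.67 against -1.91. NRT1.7 had -0.68 against -1.57. ATBETAFRUCT4 had -0.53 and, at a probe above background on 7 arrays, -0.21, against -1.54. EXPA8 had means of -2.25 and -0.74 at its other probes and -2.23 at its member probe. In 18 of the 132 the other probe was the lower one, as for IAA7 (-0.96 against -0.37), GNC (-1.10 against -0.77) and HB4 (-0.62 against -0.43). The sizes given above therefore hold for the probes chosen, and the transcript forms each probe reads were not analysed here.

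In the genome, 8 pairs of members were direct neighbours when only protein-coding genes were counted. The 257 genes raised by the mirrored rule described below gave 14 such pairs. The pairs of members were RTFL17 with GATL3, AT1G29500 with SAUR68, LTP with RLP19, and TPPE with AT2G22200. The others were AT2G29970 with FAD3, UGT71B1 with HYR1, AT3G50650 with DWF4, and AT4G08850 with ARGAH2. The 315 with a locus were spread over all 5 chromosomes, with 1.51% of the tested genes of chromosome 1, 2.32% of chromosome 2, 1.73% of chromosome 3, 1.81% of chromosome 4 and 1.42% of chromosome 5.

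Over all 21471 genes tested, 1.57% were members. At that share a short list often holds none, so nothing is read from lists with 0 members. No member was found among 14 evening and daytime clock genes (0) or 14 genes of the morning MYB-like and LNK families (0). Of the evening and daytime genes, 2, 4 and 1 were called lower and 0, 1 and 1 higher at 2, 4 and 8-9 h. The lists of abscisic acid receptors, phosphatases and synthesis, BTB and TAZ domain proteins, PIF and shade genes, sugar starvation, phenylpropanoids and nitrate uptake also held 0 members. Such lists could still hold lower genes. At 4 h 5 of 5 BTB and TAZ genes, 7 of 8 PIF and shade genes and 10 of 13 phenylpropanoid genes were called lower, against 19.5% of all genes. Abscisic acid receptors gave 5 of 9, synthesis 3 of 7 and nitrate uptake 3 of 4. Phosphatases and kinases gave 1 of 9, with 2 called higher, and sugar starvation 2 of 16. The 11 lists without a member, the antenna genes included, held 116 tested genes in all. The mirrored rule, with all 6 ratios at 0.3 or higher, gave 257 genes, and a late rule, near 0 at 2 h and low from 4 h, gave 29. The median difference from 2 h to 4 h was -0.23 in the 337 genes, 0.11 in the mirrored set and -0.89 in the late set, values that each set's own rule bears on.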

How the data were processed

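The authors' deposited series matrix holds log10 ratios of Alc::LHY over wild type. It matched the deposited scanner log ratios, turned for dye, at a correlation of 0.999999 or higher. The scanner files give, per the file headers, the median signal and background of each dye as intensity in linear units. The submitters' processing notes name Agilent Feature Extraction 10.7.3.1. No spot was saturated (0). Arrays held 45220 features. The median signal was 54 to 73 units in Cy3 and 121 to 146 in Cy5, and 50.8% to 63.2% of spots were well above background. The number of arrays limits the precision.

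Background was corrected with normexp (offset 50). Log2 ratios came from within-array loess with control spots at weight 0, and 161 outlier spots were left out. Of 43603 probes, 28465 were well above background on at least 2 arrays and measured on at least 6. limma 3.58.1 (R 4.3.3, statmod 1.5.0) fitted a coefficient per time and a dye term, which is also the replicate block and the slide, with 3 residual degrees of freedom. Benjamini-Hochberg adjustment ran over all probes, with a threshold of 0.05. Changes over time in each line were fitted on the separate channels after Aquantile (28386 probes, 6 residual degrees of freedom, intraspot correlation 0.334). Both fits were tested on simulated data. A ± value is the standard error of the fit. Replicates with the same letter had deviations correlated at -0.01 to 0.58, and the letter is the dye split.

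Names came from the TAIR10.1 gene table, which held 26259 of 27803 accessions, without gene descriptions. The files refer to another build, so no coordinates are given. Sequences were not used here, so the planned promoter motif search was not run. The genes, lists and families were chosen with earlier results of these data known. Named genes are the 12 with the lowest mean ratio after ethanol, those in 17 gene lists, the 12 lowest of 37 factors found by words in their names, the genes next to the limit, and family and single genes picked after their values were seen. Gene lists were counted on the brightest probe per gene. Near-identical gene copies cannot be separated.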

Additional observations from a re-analysis of the deposited data

How the results depend on the processing

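Alternatives were another background correction, centring, filter, ratio source or fit, and leaving out each array in turn. All 337 fitted ratios after ethanol were below 0 under each alternative, for the 321 genes left under the brightest probe per gene. The genes were chosen as low on the same arrays, so this sign is no separate support. Median centring moved the median of all probes to -0.11 at 2 h, -0.09 at 4 h and 0.10 at 8-9 h. It called 0 members at 2 h and 14 at 8-9 h, and 0, 1718 and 210 probes at 2, 4 and 8-9 h. From 2 h to 4 h, 84 probes were called lower and 12 higher, and from 2 h to 8-9 h 61 and 7. All 4 counts were 0 with median centring, no replicate block, scanner ratios or series matrix ratios. They were 32, 2, 23 and 5 without background subtraction, 164, 25, 93 and 12 without the filter on dim probes, 20, 2, 29 and 7 with the brightest probe per gene, and 49, 8, 25 and 7 with an intensity trend, and the last was 3 with the filter on all 8 arrays. Without the filter on dim probes 1 member was called lower in each. The rule gave 556 genes at a limit of -0.25, 178 at -0.35, 89 at -0.4 and 123 on loess ratios. It gave 261 with both dyes well above background on all 8 arrays.

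Leaving out 1 array gave 352 to 541 genes by the rule (541 without replicate S at 2 h). Dropping an array can only add genes, since a condition of the rule falls away. Members called lower ranged from 78 to 273 at 2 h, 255 to 323 at 4 h and 216 to 329 at 8-9 h, and called probes from 588 to 3700, 4022 to 9947 and 2508 to 9854. Probes called from 2 h to 4 h ranged from 0 to 11 lower and 0 to 1 higher, with 0 for the other differences and 0 members. Within Alc::LHY, members called lower ranged from 72 to 187, 175 to 276 and 147 to 266, and within wild type members called higher from 0 to 10, 2 to 6 and 3 to 28.

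Without the replicate block, 259, 318 and 325 members were called lower at 2, 4 and 8-9 h. Over 121 genes named or counted in families, 5547 of 6147 values stayed on their side of the threshold, 532 lost their call, 68 gained one and 0 changed direction. These genes are members, so the rule all but sets their direction. The cause of the lost calls was not tested. The offset of the background correction draws the ratios of dim probes towards 0 by its construction.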
